A study of Mus musculus with 12 samples.

Results

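The 51 mouse genes described here encode the classical axon guidance receptors and ligands. They comprised 9 EphA receptors, 5 EphB receptors, 5 ephrin-A ligands, 3 ephrin-B ligands, 2 neuropilins, 9 plexins, 6 class 3 semaphorins, 3 Slits, 3 Robo receptors, netrin 1 (Ntn1) and 5 netrin receptors. They were taken by name, as 51 of 21938 protein-coding genes, and no accessibility value was used to choose them. A domain was attached to a gene when it overlapped 1 kb to either side of a transcription start site (TSS; a promoter domain), when it overlapped the gene body, or when the gene held the nearest protein-coding TSS. By this rule 819 of 94875 domains in embryoid bodies (EBs), 985 of 87916 in progenitors, 997 of 88806 in the no Dox control, 1023 of 91181 in iHoxc6, 691 of 63504 in iHoxc9 and 629 of 56232 in iHoxc10 were attached to the 51 genes. Merged over the 6 lists, they formed 2574 of 218562 accessible regions.

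Accessible chromatin had been mapped by ATAC-seq, in which a transposase cuts open DNA, while mouse embryonic stem cells differentiated as EBs into spinal motor neurons. All cells were of the Ainv15 background, and the 12 samples made 6 groups of 2. Cells labelled Ainv15(iCre), the parental line, gave the EB samples, which had received no patterning signal, and the progenitor samples, which had received 1 µM retinoic acid (RA) and 0.5 µM smoothened agonist (SAG) for 2 days. The other 4 groups were collected after 4 days of RA and SAG. The lines Ainv15(iFlag.Hoxc6), Ainv15(iFlag.Hoxc9) and Ainv15(iFlag.Hoxc10), here iHoxc6, iHoxc9 and iHoxc10, received 3 µg/mL doxycycline (Dox) for the last 48 h, which switched on a Flag-tagged Hox gene present as a single copy at the HPRT locus. The no Dox control was Ainv15(iFlag.Hoxc6) without Dox, so that its genotype was that of iHoxc6 alone.

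Both samples of a group had been joined into 1 list of domains, which gives positions but neither height nor read count. Each value below is therefore a single value with no replicate error, no difference could be tested against the spread between replicates, and the read depth is unknown. Intervals are 95% Wilson intervals that cover the counting of domains only. The no Dox list also differed from the others in its file layout and sequencing series, so series and calling settings cannot be told apart from treatment in comparisons that use it. The same holds for the cell line, except in the comparison with iHoxc6, where the line is the same. The lists covered 23.1, 25.7, 29.7, 24.8, 17.8 and 20.1 Mb in EBs, progenitors, no Dox, iHoxc6, iHoxc9 and iHoxc10. In such bulk samples a smaller share of cells with open chromatin cannot be told apart from less open chromatin in each cell. All 6 motor neuron progenitor markers (Olig2, Nkx6-1, Nkx6-2, Pax6, Sox2 and Neurog2) had a promoter domain in every list, and the 7 motor neuron markers did so too, except Chat in iHoxc9. The pluripotency genes Pou5f1 and Nanog had one in EBs alone. Promoter domains of other neuron markers were present for 5, 5, 6, 4, 4 and 4 of 6 genes in the order of lists above, those of mesoderm and endoderm for 6, 6, 5, 5, 5 and 5 of 7, and those of neural crest and glia for 1, 2, 2, 1, 1 and 0 of 4. The part of these other cell types in the results below was not tested.

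Guidance cues steer growing axons by attraction or repulsion. Ephrins are membrane-bound ligands of Eph receptor tyrosine kinases, secreted class 3 semaphorins act mainly through complexes of neuropilins and plexins, Slits act through Robo receptors, and netrin 1 attracts through Dcc and repels through Unc5 receptors. In the spinal cord these systems decide where motor axons leave, which side of the limb they enter (EphA4 and ephrin-A5, neuropilins and semaphorins) and which axons cross the midline (Slits, Robos, netrin 1 and Dcc). Hox proteins give motor neurons their position along the body axis: Hoxc6 is a brachial, Hoxc9 a thoracic and Hoxc10 a lumbar factor.

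The guidance genes had open promoters at nearly every stage. A promoter domain was present for 50 of 51 genes in EBs, where 69.1% of all protein-coding genes had one. The count was 50 in progenitors against 66.5% of all genes, 49 in the no Dox control against 65.4%, and 50 in iHoxc6 against 65.7%. It was 49 in iHoxc9 against 62.9% and 50 in iHoxc10 against 62.5%. The presence of a promoter domain thus hardly separated the groups, and 3 genes, Plxnb3, Epha8 and Slit1, accounted for every absence.

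The promoters of Plxnb3 and Epha8 are printed because Plxnb3 had no promoter domain in any list and Epha8 lacked one in the control alone. Of the 51 genes, 43 had an entry in the RefSeq promoter table (GRCm38.p6), which holds the 250 bases before and 50 after a start site. Efnb3, Plxna1, Plxna4, Sema3f, Slit1, Ntn1, Dcc and Unc5d had none. The Epha8 sequence lies on the minus strand at chr4:136956767-136957066 and the Plxnb3 sequence on the plus strand at chrX:73756853-73757152. Both are given 5′ to 3′ along the gene, with each CpG dinucleotide in capitals.
Epha8 promoter: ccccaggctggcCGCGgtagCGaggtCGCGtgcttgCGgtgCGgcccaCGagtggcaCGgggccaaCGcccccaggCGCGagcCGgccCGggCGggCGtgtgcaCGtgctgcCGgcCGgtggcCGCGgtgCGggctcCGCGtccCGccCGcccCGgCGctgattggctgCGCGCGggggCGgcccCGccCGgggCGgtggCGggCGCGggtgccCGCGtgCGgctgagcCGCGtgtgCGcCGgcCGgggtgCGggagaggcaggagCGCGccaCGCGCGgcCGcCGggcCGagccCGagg
Plxnb3 promoter: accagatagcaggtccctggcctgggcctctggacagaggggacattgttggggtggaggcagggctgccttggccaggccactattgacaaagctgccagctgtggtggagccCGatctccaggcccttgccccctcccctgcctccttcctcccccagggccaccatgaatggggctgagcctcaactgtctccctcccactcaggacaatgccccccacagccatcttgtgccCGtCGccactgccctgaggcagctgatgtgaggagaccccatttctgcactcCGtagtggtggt
The Epha8 sequence held 56 CpG, a number reached by 0.195% of the 32851 promoters in the table, and the Plxnb3 sequence held 4, reached by 68.6%. The median was 21 CpG over the entries of the guidance genes and 7 over all entries. The Sema3a entry held 2 CpG and overlapped no list either, although Sema3a had a promoter domain in every list by the 1 kb rule. A relation between CpG number and accessibility was not tested.

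Plxnb3, a class B plexin whose family binds semaphorins, had no promoter domain in any list. Its attached domains covered 45 bp in EBs, 34 bp in the no Dox control and 0 bp in the other lists. Epha8 encodes an EphA receptor. Its promoter domains covered 502 bp in EBs, 522 bp in progenitors, 0 bp in the control, 194 bp in iHoxc6, 47 bp in iHoxc9 and 160 bp in iHoxc10. The CpG-rich promoter printed above was therefore in 5 lists and missing from the control alone. Slit1, which encodes a secreted repellent, had promoter domains of 374, 85, 392, 55, 0 and 289 bp in the same order, so that iHoxc9 was the list without one.

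The width of open promoter DNA varied more than its presence. Efna5, the ephrin-A5 gene, was the widest in 5 lists, with 3616 bp in progenitors, 4934 bp in the control, 3334 bp in iHoxc6, 3568 bp in iHoxc9 and 3179 bp in iHoxc10, but had 1794 bp in EBs. Ntn1 had 1719, 2061, 2735, 3104, 1648 and 2820 bp. At the other end, Sema3g, a class 3 semaphorin gene, stayed between 133 and 246 bp, and Plxna3, a neuropilin co-receptor gene, had its promoter as its sole domain in each list, at 296 to 582 bp. Epha4, whose receptor guides limb motor axons, had 1137, 882, 1273, 1421, 268 and 1202 bp, with iHoxc9 the lowest.

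**Figure D1:**
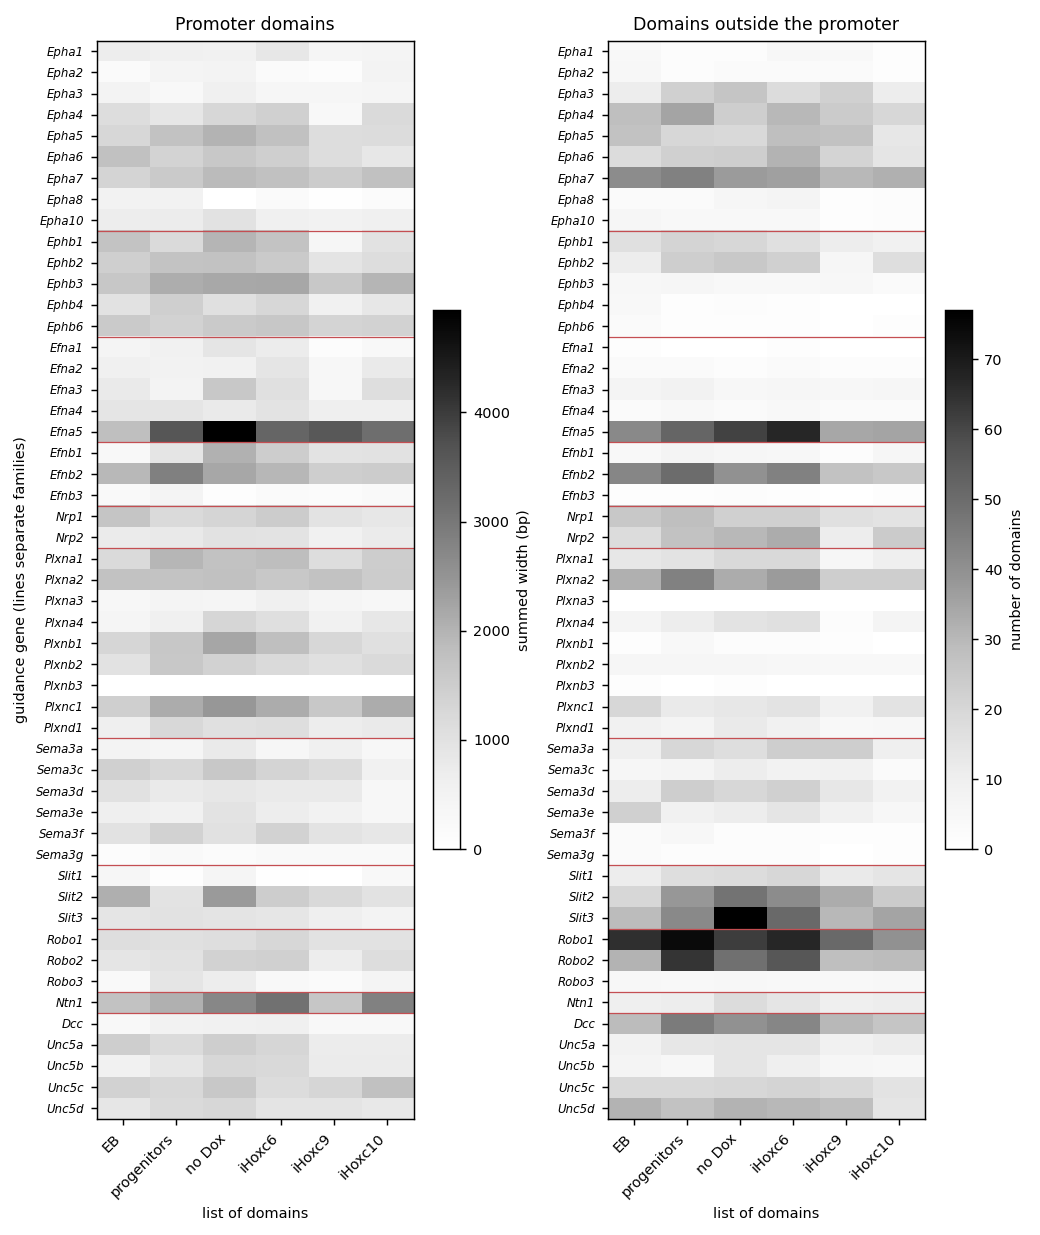
Values of the 51 guidance genes in the 6 lists, with genes on the vertical axis and families separated by lines. The left panel shades the summed width of promoter domains in bp and the right panel the number of attached domains outside the promoter. Dark rows outside promoters include Robo1, Robo2, Efna5, Slit3 and Efnb2, and the Plxnb3 row is blank in the left panel.

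Most attached domains lay outside promoters, as did most domains of each whole list. Promoter domains made up 81 of 819 attached domains in EBs, 74 of 985 in progenitors, 71 of 997 in the control, 86 of 1023 in iHoxc6, 72 of 691 in iHoxc9 and 65 of 629 in iHoxc10. Over the whole lists, 75216 of 94875 domains lay outside every promoter in EBs, 69837 of 87916 in progenitors and 70398 of 88806 in the control. The counts were 72727 of 91181 in iHoxc6, 46831 of 63504 in iHoxc9 and 40707 of 56232 in iHoxc10. A guidance gene had a median of 12, 13, 16, 16, 10 and 10 attached domains in these lists, whereas a protein-coding gene had a median of 3 in EBs and 2 in each other list. The guidance genes were also long, with a median of 115 kb against 17.4 kb for all protein-coding genes, and counts were not corrected for length. Attached domains were 0.863% (0.806 to 0.924) of the EB list and 1.12% (1.05 to 1.19) of the progenitor list. In the day 4 lists the share lay between 1.09% and 1.12%, so the attached share was higher from the progenitor stage on.

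Robo1, a Slit receptor gene, held the most domains outside promoters in 5 of the 6 lists, with 65, 74, 62, 67, 51 and 40 in the order of lists used above. In the no Dox list Slit3 (77) exceeded it, and in iHoxc6 Efna5 had as many (67). By contrast Efna1, an ephrin-A gene, had 0 or 1 and Efnb3, an ephrin-B gene, 0 to 2. Receptors as a whole had 559, 657, 632, 662, 453 and 412 attached domains over 33 genes, and ligands had 260, 328, 365, 361, 238 and 217 over 18 genes.

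The comparison of progenitors with EBs followed the first 2 days of patterning. Attached domains of a gene were summed in bp (its covered length), a gene was compared when this reached 500 bp in either list, and it was called when the lengths differed at least 2-fold. Covered length was called higher in progenitors for 8 of 49 guidance genes and lower for 1, where 8.76% of all genes compared were called higher and 7.8% lower. The median ratio was 1.38 for the guidance genes and 1.11 for all genes, and 39 of the 49 ratios exceeded 1. Summed over the guidance genes, length was 1.63-fold greater outside promoters and 1.14-fold greater in promoters, while that of the whole list was 1.12-fold greater.

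The genes called higher came from every signalling system. They were Epha3 (ratio 2.57), the ephrin-B genes Efnb1 (2.11) and Efnb3 (4.08), Plxna4 (2.45), Sema3a (2.76), Slit1 (2.17), Robo2 (2.75) and Ntn1 (2.46). Robo2 covered 5410 bp in EBs and 14890 bp in progenitors, then 11270 bp in the control, 10441 bp in iHoxc6, 5913 bp in iHoxc9 and 9344 bp in iHoxc10. Sema3a, the gene of a secreted repellent of motor axons, covered 2019, 5572, 4403, 3647, 4516 and 2313 bp. Both genes were at their lowest in EBs and their highest in progenitors. Efnb3 had the largest ratio on few bases, with 287, 1172, 661, 728, 170 and 690 bp in 1 to 3 domains. The gene called lower was Epha2, an Eph receptor gene, with 1062 bp in EBs and 518, 610, 427, 414 and 727 bp in the later lists. When lengths were divided by the total of their list, 6 genes stayed higher and 3 were lower (Epha2, Epha10 and Sema3e), against 6.24% and 9.76% of all genes.

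Outside promoters, regions that were absent from EBs and present in progenitors and all 4 day 4 lists made up 119 of 2474 regions of the guidance genes, or 4.81% (4.03 to 5.73), against 3.00% of such regions of all genes. Efnb2, an ephrin-B gene, had 10 of them, and Efna5, Slit3, Robo1 and Dcc had 8 each. Regions seen in EBs alone made up 18.5% (17.0 to 20.1) against 22.5%, and regions held by all 6 lists 4.20% (3.48 to 5.07) against 6.02%. As shares of their own regions, the guidance genes therefore had less of the EB-only and constant kinds and more of the kind first seen in progenitors. These differences in share were not tested across samples.

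The widest domain of each kind at these genes is shown by the central 200 bp of mm10, plus strand, so that the sequence under the pattern can be read. The widest domain opened in progenitors and kept afterwards lay in an intron of Slit1 (domain chr19:41670230-41671674, 1445 bp; window chr19:41670852-41671051). The widest EB-only domain lay in an intron of Epha4 (domain chr1:77461696-77462417, 722 bp; window chr1:77461957-77462156). Capitals mark TAAT, the core bound by anterior and central Hox proteins, and ATAAA, the core preferred by posterior ones, on either strand (ATTA and TTTAT on the other), and matches may overlap.
Slit1 intron: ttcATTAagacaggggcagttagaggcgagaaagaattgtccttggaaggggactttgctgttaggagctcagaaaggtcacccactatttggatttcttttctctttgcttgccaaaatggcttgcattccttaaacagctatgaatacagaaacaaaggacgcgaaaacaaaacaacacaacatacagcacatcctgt
Epha4 intron: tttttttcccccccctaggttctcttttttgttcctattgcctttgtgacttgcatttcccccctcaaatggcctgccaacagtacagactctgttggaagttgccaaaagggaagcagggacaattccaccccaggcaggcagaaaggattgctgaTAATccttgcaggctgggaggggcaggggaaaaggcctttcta
The Slit1 window held 1 TAAT and no ATAAA, and at least 1 TAAT was in the central 200 bp of 53.9% of progenitor domains. The Epha4 window likewise held 1 TAAT, as did 46.9% of EB domains.

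Progenitors were next compared with the no Dox control, which covers the last 2 days without an induced Hox gene. Covered length was called higher at day 4 for 3 of 48 guidance genes and lower for 0, where 5.68% of all genes were called higher and 2.69% lower. The median ratio was 1.21 against 1.14 for all genes. The 3 genes were Unc5b, a netrin receptor gene (ratio 2.86), Slit3 (2.45) and Epha10, an EphA receptor gene without kinase activity (2.21). Unc5b covered 1963, 1583, 4526, 3179, 1399 and 2116 bp in EBs, progenitors, no Dox, iHoxc6, iHoxc9 and iHoxc10. Epha10 covered 1874, 1043, 2303, 1390, 731 and 1068 bp. Both were thus highest in the control and lower in each induced list. Both genes had been picked for being high in the control, so lower values elsewhere are partly built into that choice. The control list also covered the most DNA (29.7 Mb). Over all genes, median ratios to it were 0.826 (iHoxc6), 0.607 (iHoxc9) and 0.696 (iHoxc10). The part of induction in the lower values of these genes was not tested.

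Slit3 had the greatest covered length of the 51 genes in the control list. It covered 4734 bp in EBs, 8970 bp in progenitors, 21997 bp in the control, 12137 bp in iHoxc6, 6106 bp in iHoxc9 and 9746 bp in iHoxc10, in 30, 43, 78, 52, 31 and 36 domains. Its promoter width stayed between 463 and 974 bp, and 72 of the 78 control domains lay in the gene body outside the promoter. In Slit3, 7 regions were present in all 4 day 4 lists and in neither earlier list, the most of any guidance gene. The widest such domain of the control (domain chr11:35619552-35621238, 1687 bp; window chr11:35620295-35620494), 498 kb from the Slit3 TSS and attached to Pank3 as well, is printed with the same capitals.
Slit3 intron: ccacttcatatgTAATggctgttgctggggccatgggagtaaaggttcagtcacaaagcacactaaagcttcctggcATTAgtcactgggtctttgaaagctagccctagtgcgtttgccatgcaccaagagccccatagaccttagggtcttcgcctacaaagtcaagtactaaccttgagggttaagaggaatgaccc
It held 2 TAAT and no ATAAA, and at least 2 TAAT were in 31.5% of control domains. Line and sequencing series of the control differ from those of progenitors, calling settings may, and their part in the Slit3 value was not tested.

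**Figure D2:**
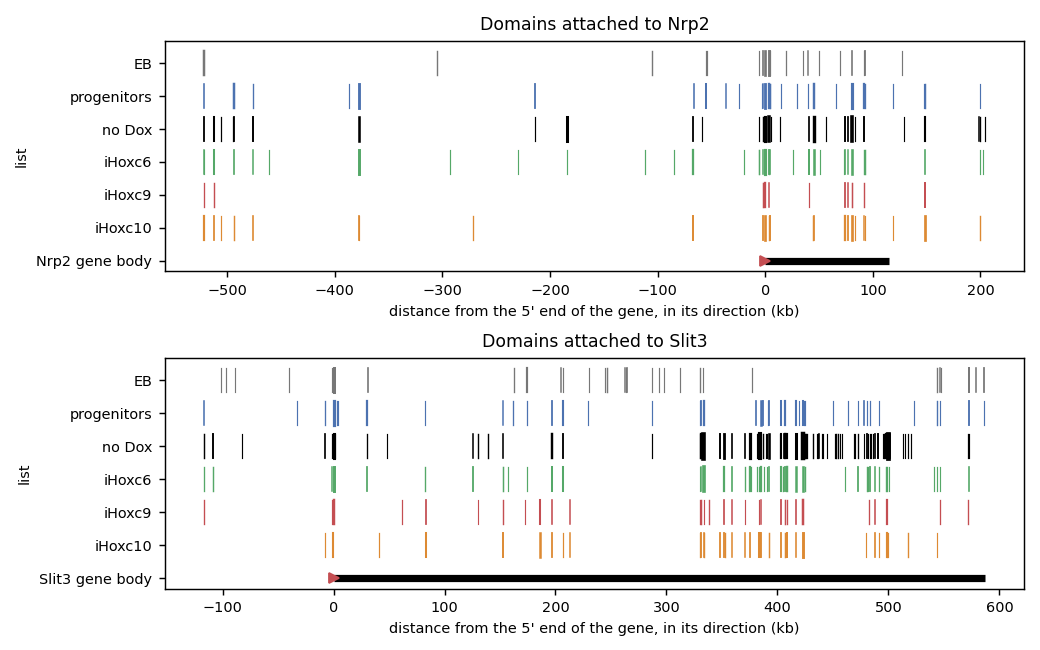
Domains attached to Nrp2 and Slit3 in the 6 lists, drawn as bars at their distance in kb from the 5′ end of the gene, with the gene body as a black bar. Slit3 domains are densest past the middle of the gene body in the no Dox control (78 domains in all), with few near its end, and Nrp2 has 32 domains in the control and 12 in iHoxc9. Nrp2 was chosen for this map after its values were seen.

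The 3 inductions were each compared with the same no Dox list, so their values share that control and are given side by side only. In iHoxc6 none of 49 guidance genes was called higher and none lower, where 1.07% of all genes were called higher and 5.12% lower. Its median ratio was 0.867 against 0.826 for all genes. In iHoxc9, 0 of 48 were called higher and 21 lower, where 0.514% of all genes were called higher and 31% lower, with a median ratio of 0.539 against 0.607. In iHoxc10, 0 of 48 were higher and 11 lower, where the shares of all genes were 0.494% and 17.3%, with a median ratio of 0.695 against 0.696.

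The iHoxc9 and iHoxc10 lists were shorter as a whole, and the median over all genes was 0.607 and 0.696 of the control. After division by list totals, 7 guidance genes were lower in iHoxc9, against 8.22% of all genes, and 3 in iHoxc10, against 5.50%. The median ratios then became 0.902 against 1.02 for all genes in iHoxc9, and 1.03 against 1.03 in iHoxc10. The 7 genes in iHoxc9 were Epha8, Ephb2, Efna1, Efnb3, Nrp2, Plxna4 and Slit3. The 3 genes in iHoxc10 were Efna1, Sema3c and Sema3d. In iHoxc6, Epha1, whose ratio without scaling was 1.97 and not called, was called higher after scaling and none was lower, against 1.88% and 2.56% of all genes.

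**Figure D3:**
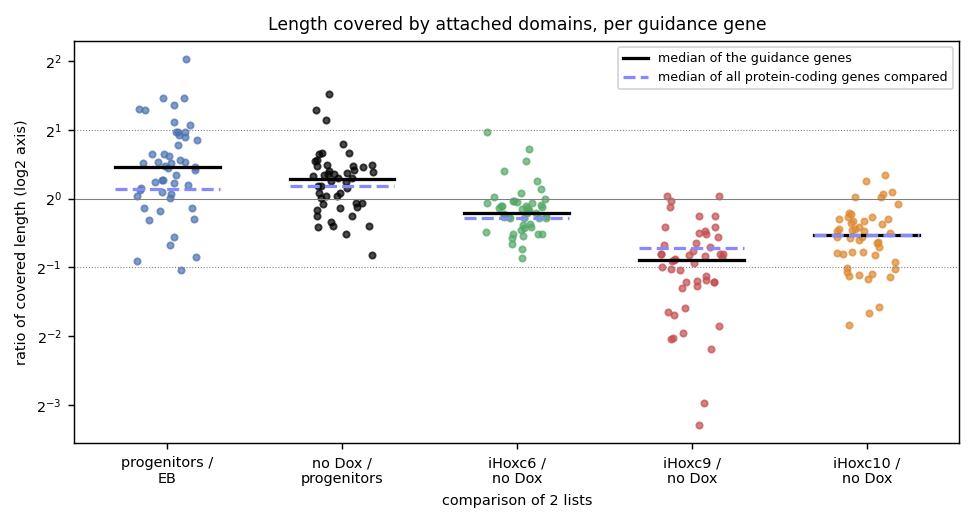
Ratio of covered length between 2 lists for each guidance gene compared (points, log2 axis), for 5 comparisons. Solid bars are medians of the guidance genes, dashed bars medians of all protein-coding genes compared, and dotted lines mark a 2-fold difference. The iHoxc9 points reach lowest, down to 0.102 at Epha8, and their median of 0.539 lies under that of all genes.

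Eph receptors and ephrins gave the lowest ratios in iHoxc9. Epha8 covered 1003, 916, 766, 713, 78 and 470 bp in EBs, progenitors, no Dox, iHoxc6, iHoxc9 and iHoxc10, a ratio of 0.102 in iHoxc9. Efna1 covered 522, 572, 899, 737, 115 and 285 bp, a ratio of 0.128 in iHoxc9 and 0.317 in iHoxc10. In no list did Efna1 have more than 1 domain outside its promoter, so its value is almost wholly a promoter value. Ephb2, an EphB receptor gene, covered 3324, 6484, 6647, 7029, 1466 and 4772 bp, a ratio of 0.221. Its promoter width was 1718 bp without Dox and 936 bp in iHoxc9, while its domains outside the promoter went from 25 to 6. Epha10, Ephb1, Ephb4, Efna3, Efnb1 and Efnb3 were also called lower in iHoxc9, with ratios of 0.257 to 0.459.

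Among the semaphorin receptors, Nrp2, which binds Sema3f and other class 3 semaphorins, covered 4101, 7625, 10711, 8044, 2597 and 7071 bp in the same order. Its ratio was 0.242 in iHoxc9 and no other induced list passed 2-fold. Nrp2 had 32 domains in the control, 34 in iHoxc6, 12 in iHoxc9 and 25 in iHoxc10, while its promoter width was 980, 954, 572 and 735 bp. The plexin genes Plxna4 (0.245) and Plxnd1 (0.405) were also lower in iHoxc9, and Nrp1, the other neuropilin gene, was not called, with 8099 bp without Dox and 5659 bp in iHoxc9. Of the ligands, Sema3d (0.500) and Sema3e (0.490) were called in iHoxc9 just inside the threshold.

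In iHoxc10 the lowest ratios were those of Sema3d, Efna1 and Sema3c, and class 3 semaphorins are secreted, mostly repellent cues. Sema3d covered 2942, 4193, 6118, 3886, 3058 and 1707 bp, a ratio of 0.279 in iHoxc10. Sema3c covered 2212, 3474, 3549, 2632, 2557 and 1184 bp, a ratio of 0.334. Over the 6 semaphorin genes the summed length was 18523 bp in the control, 15153 bp in iHoxc6, 12778 bp in iHoxc9 and 8172 bp in iHoxc10. Of the day 4 lists, this family thus had its shortest length in iHoxc10, whereas every other family had its shortest in iHoxc9. Examples are EphB receptors (19212, 17910, 8281 and 12998 bp) and neuropilins (18810, 15228, 8256 and 13042 bp). The whole list was also shorter in iHoxc9 (17.8 Mb) than in iHoxc10 (20.1 Mb), so a minimum in iHoxc9 was not particular to these families. Plxnb1, Plxnd1, Sema3e, Slit2, Slit3, Epha10, Ephb1 and Unc5b were also called lower in iHoxc10, with ratios of 0.443 to 0.495.

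The Slit, Robo and netrin systems were lower in iHoxc9 at Slit1 (0.413), Slit3 (0.278), Robo3 (0.434), Ntn1 (0.438), Dcc (0.486), Unc5a (0.330) and Unc5b (0.309). Robo3 promotes midline crossing and Dcc is the attractive netrin receptor. Unc5a, a repulsive netrin receptor gene, covered 3103, 5321, 5091, 4955, 1682 and 4047 bp, so that the other induced lists stayed near the control. Some genes kept their length in iHoxc9. Epha7, an EphA receptor gene, had 11578 bp in the control, 9529 bp in iHoxc6, 11258 bp in iHoxc9 and 11789 bp in iHoxc10, and Epha5 had 7684, 7164, 7054 and 5683 bp.

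The remaining guidance genes were called in none of the 5 comparisons or were not compared. They were Epha1, Epha4, Epha5, Epha6, Epha7, Ephb3 and Ephb6 among the Eph receptors, Efna2, Efna4, Efna5 and Efnb2 among the ephrins, and Nrp1, Plxna1, Plxna2, Plxna3, Plxnb2, Plxnb3 and Plxnc1 among the semaphorin receptors. Sema3f, Sema3g, Robo1, Unc5c and Unc5d completed them. Of the genes compared, Plxnc1 had the highest ratio in iHoxc10 (1.27) and Epha1 in iHoxc6 (1.97). Plxna3, Plxnb3 and Sema3g stayed under 500 bp in most lists and could be compared in 1, 0 and 1 of the 5 comparisons.

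Other genes of the pathway were compared in the same way. For progenitors against EBs, 36 of 39 further guidance cues and receptors had a median ratio of 1.29 with 5 called higher and 1 lower, and 39 of 40 intracellular effectors had a median of 1.31 with 4 called higher and 0 lower, beside 1.38 for the 51 guidance genes, 1.11 for all genes and 8.76% of all genes called higher. For no Dox against progenitors, 2 cues and receptors were called higher and 1 lower, and no effector was called, with medians of 1.28 and 1.18 against 1.14. Against no Dox, of the 39 further guidance cues and receptors, 36 were compared, and 12 were called lower and 1 higher in iHoxc9, 5 lower and 1 higher in iHoxc10, and 2 lower in iHoxc6. Of 40 intracellular effectors, 10 of 38 compared were lower in iHoxc9, 6 of 39 in iHoxc10 and 1 of 39 in iHoxc6. Of all genes, 31% were lower in iHoxc9, 17.3% in iHoxc10 and 5.12% in iHoxc6. The effectors lower in iHoxc9 included Dpysl2, Dpysl5 and Srgap3, which act downstream of semaphorins and Slits. Their medians were 0.591 for cues and receptors and 0.551 for effectors in iHoxc9, against 0.607 for all genes.

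Domains were then followed one by one. A domain of an induced list was called induction-associated when it overlapped neither a progenitor nor a no Dox domain. Such domains were 370 of the 1023 attached in iHoxc6, against 33.4% of the whole list, 253 of 691 in iHoxc9, against 26%, and 153 of 629 in iHoxc10, against 18.5%. Few of them were promoter domains, with 14 in iHoxc6, 3 in iHoxc9 and 0 in iHoxc10. Since guidance genes had proportionally few promoter domains, the shares outside every promoter are the closer comparison. These were 38.0% (34.9 to 41.1; 356 of 937) in iHoxc6 against 39.2% of the list, 40.4% (36.6 to 44.3; 250 of 619) in iHoxc9 against 33.4%, and 27.1% (23.6 to 30.9; 153 of 564) in iHoxc10 against 24.1%. The interval lay above the share of the list in iHoxc9 and held it in the other lines. Among domains at least 150 bp wide the shares were 7.95% (5.66 to 11.1) against 8.05%, 19.3% (15.0 to 24.5) against 16.9%, and 13.8% (10.5 to 17.9) against 11.6%, and every interval held the share of the list.

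Induction-associated domains were narrow, with a median of 40 bp for iHoxc6, 45 bp for iHoxc9 and 64 bp for iHoxc10, whereas the other attached domains had medians of 222, 219 and 286.5 bp. The Slit receptor genes Robo1 and Robo2 were among those with the most such domains in each line. Robo1 had 29, 22 and 15 of them in the same order of lines, and Robo2 had 30, 16 and 11. Efna5 had 33, 12 and 14, so it led in iHoxc6 and stood behind Robo1 in iHoxc10. Unc5d, a netrin receptor gene, had 14, 16 and 3, and Epha7 had 11, 14 and 11. Nrp2 had 12 for iHoxc6, 0 for iHoxc9 and 3 for iHoxc10. At 14 of the 51 genes no induction-associated domain was found in iHoxc9, and the share over all genes is not given. Among these, Plxnb3 had no attached domain at all in iHoxc9. Plxna3, Ephb4, Ephb6, Efna1, Efnb3 and Sema3g had 1 each, so that few could be found there.

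Regions outside promoters found in iHoxc9 and iHoxc10 alone, the pair of posterior factors, numbered 25, or 1.01% (0.685 to 1.49) of the regions of the guidance genes against 0.551% of all. Epha5, Epha7, Slit3 and Robo1 had 3 each. Regions shared by the 3 induced lists alone numbered 14, or 0.566% (0.337 to 0.948) against 0.345%, and Plxna2 had 3 of them. The first interval lay above the share of all regions and the second reached down to 0.337%. Regions of 1 gene are neighbours, so these intervals are likely too narrow.

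The widest induction-associated domain of each line is printed because it shows the Hox cores in place. In iHoxc6 it lay in an intron of Epha6 (domain chr16:59853309-59853772, 464 bp; window chr16:59853441-59853640), 751 kb from the TSS, was attached to Arl6 as well and was in no other list. In iHoxc9 it lay in an intron of Plxna2, 45.7 kb from the TSS (domain chr1:194665511-194666170, 660 bp; window chr1:194665741-194665940), and iHoxc10 held it too. In iHoxc10 it lay in an intron of Epha5, 3.54 kb from a TSS (domain chr5:84412380-84413271, 892 bp; window chr5:84412726-84412925), and iHoxc9 held it too. Sequences are the plus strand of mm10 with TAAT and ATAAA cores of either strand in capitals.
Epha6 intron: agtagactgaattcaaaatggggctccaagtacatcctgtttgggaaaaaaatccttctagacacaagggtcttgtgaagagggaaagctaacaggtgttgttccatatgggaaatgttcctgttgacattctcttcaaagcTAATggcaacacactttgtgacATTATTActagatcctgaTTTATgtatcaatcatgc
Plxna2 intron: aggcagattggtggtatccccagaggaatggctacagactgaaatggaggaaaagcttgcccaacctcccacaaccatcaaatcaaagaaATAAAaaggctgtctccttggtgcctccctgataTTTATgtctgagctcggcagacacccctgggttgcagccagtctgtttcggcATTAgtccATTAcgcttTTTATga
Epha5 intron: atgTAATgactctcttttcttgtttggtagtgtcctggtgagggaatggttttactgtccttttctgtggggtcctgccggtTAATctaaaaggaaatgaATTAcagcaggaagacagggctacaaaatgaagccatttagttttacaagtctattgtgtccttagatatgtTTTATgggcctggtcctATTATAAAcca
The Epha6 window held 3 TAAT and 1 ATAAA, the Plxna2 window 2 and 3, and the Epha5 window 4 and 2. At least 3 TAAT were in the central 200 bp of 16.7% of iHoxc6 domains. For iHoxc9, 5.13% of domains had at least 3 ATAAA and 31.2% at least 2 TAAT. For iHoxc10, 7.87% had at least 4 TAAT and 10.9% at least 2 ATAAA. These shares are over all domains of a list, with promoters and narrow domains included. Among induction-associated domains outside promoters and at least 150 bp wide, 47.9%, 80.1% and 59.9% of those in iHoxc6, iHoxc9 and iHoxc10 held an ATAAA. Single cores were common, since at least 1 ATAAA was in 34.1%, 37.5% and 33.2% of the iHoxc6, iHoxc9 and iHoxc10 domains.

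Both cores were denser in the 200 bp windows centred on induction-associated domains than in those centred on the other attached domains. The window had the same width for every domain. At induction-associated domains, with median widths of 40, 45 and 64 bp in iHoxc6, iHoxc9 and iHoxc10, most of it was flanking DNA. At the others, with medians of 222, 219 and 286.5 bp, it lay mostly inside the domain. Outside promoters, the central 200 bp held a mean of 1.22 ATAAA in the 250 induction-associated domains attached in iHoxc9 and 0.656 in the 369 others. In iHoxc10 the means were 1.01 and 0.637, and in iHoxc6 0.699 and 0.606. Means of the central core TAAT were 2.19 and 1.82 in iHoxc9, 2.08 and 1.86 in iHoxc10, and 1.87 and 1.70 in iHoxc6. The whole lists had means of 1.10, 0.795 and 0.630 ATAAA for induction-associated domains of iHoxc9, iHoxc10 and iHoxc6, so the order of the lines was not particular to the guidance genes. In iHoxc9 the median GC content of these windows was 43.5% for the attached induction-associated domains and 47.0% for the others. The part of GC content and of domain width in these means was not tested.

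**Figure D4:**
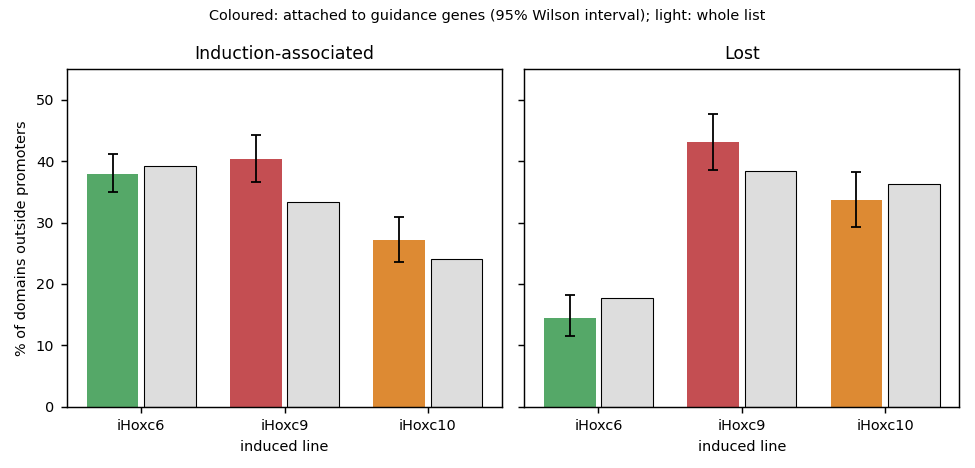
Share of domains outside promoters that were induction-associated (left) or lost (right) in each induced line, in percent. Coloured bars are domains attached to the guidance genes with 95% Wilson intervals and light bars the whole list. The largest gap from the list is in iHoxc9 in both panels, at 40.4% against 33.4% and at 43.1% against 38.4%.

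Loss was counted over the 501 attached progenitor domains that the no Dox list also held, and a domain was lost when an induced list held no overlapping domain. Lost were 66 in iHoxc6, against 14.1% over all genes, 196 in iHoxc9, against 30%, and 155 in iHoxc10, against 28.4%. Outside promoters the shares of 434 were 14.5% (11.5 to 18.1) in iHoxc6 against 17.7%, 43.1% (38.5 to 47.8) in iHoxc9 against 38.4%, and 33.6% (29.4 to 38.2) in iHoxc10 against 36.3%. The iHoxc9 interval began just above the share of all genes, and the iHoxc6 and iHoxc10 intervals held it. Loss in iHoxc9 alone took 66 of the 434, or 15.2% (12.1 to 18.9) against 10.7%. Loss in iHoxc9 and iHoxc10 together took another 66 against 13.6%, and loss in all 3 lines took 48, or 11.1% (8.44 to 14.4) against 11.9%.

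Slit2, which encodes a midline repellent, lost 8 of 25 domains in iHoxc6, 12 in iHoxc9 and 11 in iHoxc10. Efna5 lost 7, 11 and 12 of 30, and 6 of these were lost in all 3 lines. Robo1 lost 3, 11 and 8 of 29, and Robo2 lost 0, 11 and 8 of 21. Of the Robo2 domains, 7 were lost in both posterior lines and kept in iHoxc6, the most of any guidance gene. Slit3 lost 5, 9 and 8 of 21, Dcc 5, 9 and 7 of 21, and Efnb2 5, 8 and 7 of 24. Nrp2 differed in that 9 of its 17 domains were lost in iHoxc9 and 2 in iHoxc10, and 6 were lost in iHoxc9 alone, again the most of any guidance gene.

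By family, the neuropilins lost 4 of 32 domains in iHoxc6, 16 in iHoxc9 and 4 in iHoxc10. The semaphorins lost 9, 19 and 20 of 42 and the EphA receptors 7, 29 and 27 of 82. Plexins lost 3, 20 and 15 of 56, EphB receptors 3, 14 and 9 of 30, and netrin receptors 9, 23 and 18 of 56. Ephrin-A genes lost 7, 14 and 13 of 46 and ephrin-B genes 6, 12 and 9 of 33. Slits lost 14, 25 and 21 of 58, Robo receptors 4, 23 and 17 of 57 and Ntn1 0, 1 and 2 of 9. Over all genes the shares lost were 14.1%, 30% and 28.4%, or 17.7%, 38.4% and 36.3% outside promoters. The family counts include promoter domains, of which the guidance genes had proportionally few. The order of the lines seen in most families was that of the whole list. Ligands lost 36, 71 and 65 of 188 domains and receptors 30, 125 and 90 of 313, with no test of the difference between them.

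The widest domain lost in all 3 lines lay in intergenic DNA 29.3 kb from a TSS of Unc5a (domain chr13:54919356-54920068, 713 bp; window chr13:54919612-54919811). It is printed, plus strand of mm10 with the same capitals, beside the opened sites above.
Unc5a distal site: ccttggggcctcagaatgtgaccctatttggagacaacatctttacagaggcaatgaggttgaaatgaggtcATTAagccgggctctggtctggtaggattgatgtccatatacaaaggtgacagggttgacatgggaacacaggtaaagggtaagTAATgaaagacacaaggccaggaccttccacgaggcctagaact
It held 2 TAAT and no ATAAA, and at least 2 TAAT were in 28.4% of progenitor domains.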

How the data were processed

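Per the study's methods, the authors mapped paired-end ATAC-seq reads to mm10 with Bowtie2 2.2.2 and called accessible domains with DomainFinder of SeqCode. The submitters' processing notes also name Picard 2.8.2. The deposited lists hold the start and end of each domain, an other measurement than counts, with 1 list per group made from both samples. The name of the no Dox list carries p0.05, which may be a calling threshold. The thresholds of the other lists and the read depth are not given in the sources used here. The control list holds 6 columns instead of 3, the added ones constant, and the day in its file name does not match its label, which was used. Starts were read as BED starts and are printed from 1, so positions are uncertain by 1 bp.

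Genes were taken from GENCODE M21 (GRCm38), protein-coding, on chromosomes 1 to 19, X and Y, with every protein-coding TSS. Domains overlapping by at least 1 bp were held in common. Lost and induction-associated domains, covered length (compared from 500 bp, called at 2-fold) and Hox cores were computed with Python 3.11.15, NumPy 2.4.6 and pysam 0.24.0, and plots with Matplotlib 3.10.9. No test across replicates was possible with 1 list per group. The code was tested on simulated data, where 80 checks were run and 0 differed.

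Values in every list are given for genes without a promoter domain in at least 1 list, for the 3 genes with the largest ratios past 2-fold in each comparison and direction, and for the 3 genes with the most induction-associated and the most lost domains per line. Other genes with values were chosen after these were seen. The genes, lists, rules and alternatives were chosen with earlier results of these data known.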

Additional observations from a re-analysis of the deposited data

How the results depend on the processing

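No paired analysis was possible because each group had 1 list made from both samples, and leaving out a sample could not be run for the same reason. Counts of genes with a promoter domain, and all values under promoter windows of 500 bp or 5 kb, the 5′ end of the gene record alone, the nearest TSS alone, an overlap of at least 0.5 of the narrower domain and a minimum of 100 bp covered, stayed within 1.5 times those reported. Promoter counts lay so near 51 that they could hardly leave this range. In iHoxc9 the promoter count went from 49 to 47 with 500 bp windows and to 45 with domains at least 150 bp wide. Without domains that were only nearest to a guidance gene, 403, 510, 579, 574, 410 and 364 domains were attached in EBs, progenitors, no Dox, iHoxc6, iHoxc9 and iHoxc10. With domains at least 150 bp wide the attached counts were 330, 470, 486, 453, 321 and 394. Induction-associated domains then numbered 67, 69 and 68 in iHoxc6, iHoxc9 and iHoxc10, and lost domains 37, 122 and 76. As shares these were 14.8, 21.5 and 17.3% induction-associated, against 13.8, 15.8 and 13.3% over the lists, and 11.7, 38.6 and 24.1% lost, against 12.6, 30.3 and 23.5%. Guidance genes called higher in progenitors than in EBs became 13, those lower in no Dox than in progenitors 1 and those higher in iHoxc6 than in no Dox 1. The shares of all genes called are not given for this width limit, so these counts cannot be read as particular to the guidance genes. With the 56232 widest domains of each list, 448, 629, 621 and 614 were attached in EBs, progenitors, no Dox and iHoxc6, 102, 217 and 177 were induction-associated in iHoxc6, iHoxc9 and iHoxc10, and 41, 130 and 86 were lost. The order of the lines in induction-associated counts thus turned, with iHoxc6 the lowest. The shares were 16.6, 36.3 and 28.1% induction-associated, against 16.1, 27.1 and 23.7%, and 10.6, 33.5 and 22.2% lost, against 11.5, 23.6 and 18.7%. The shares in this paragraph include promoter domains, so those outside promoters remain the closer comparison. Outside promoters, iHoxc9 had 43.1% lost against 38.4%. With domains at least 150 bp wide, it had 19.3% induction-associated there against 16.9%, and the interval held the share of the list. Compared with progenitors alone, loss was counted over all 985 attached progenitor domains instead of 501, and 474, 654 and 606 were lost. These counts cannot be set beside those over 501. Induction-associated were then 519 of 1023 attached domains in iHoxc6, 350 of 691 in iHoxc9 and 247 of 629 in iHoxc10. Shares over all genes are not given for this setting. Scaled by the total of each list, the genes called lower became 3 for progenitors against EBs, 1 for no Dox against progenitors, 7 in iHoxc9 and 3 in iHoxc10, and 1 was higher in iHoxc6. For no Dox against progenitors, 4.01% of all genes were lower under this scaling. Fewer attached domains follow from a width or number limit by construction. The cause of the other differences was not tested. Read depth limits what any list could hold and is unknown.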
